A study of Oryza sativa with 12 samples.

Results

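OsGRF1 (LOC4330903), DOF1 (LOC9267486) and HOX4 (LOC4347333) are 3 rice transcription factor genes from 3 different families. They were picked out by symbol or synonym, and each had 1 probe among the 15140 genes with a probe on the arrays. Their choice rested on their levels in the mutants against wild type in an earlier look at these same arrays. Their differences from wild type are therefore given as descriptions, with no test.

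RNA from inflorescence meristems of rice (Oryza sativa), dissected together with some bracts, was applied to 12 one-colour Affymetrix arrays. Each of the 4 genotypes was hybridised to 3 of them. Beside the wild type (WT) these were the mutants asp1-10 and fon2-3 and a line with fon2-3 together with asp1-fe, called the double mutant here. All plants were raised outdoors in pots, and no treatment set the groups apart. FON2 encodes a CLAVATA3-type peptide that restrains meristem size, and ASP1 encodes a corepressor of the TOPLESS type. The double mutant carries the allele asp1-fe and the single mutant asp1-10, so in double mutant against asp1-10 the added fon2-3 mutation and the change of asp1 allele cannot be told apart. The labels do not say whether the arrays of a genotype came from separate plants or pools, and the p-values measure the spread between these samples only. Neither FON2 nor ASP1 had a probe under these names, so the mutated genes themselves were not analysed here.

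GRF proteins are plant transcription factors that act together with GIF coactivators to promote cell proliferation in growing organs, and most of their transcripts are targets of the microRNA miR396. OsGRF1 was described in rice as a gene induced by gibberellin in the growing internode. Dof proteins bind DNA through a single zinc finger of a type found in plants and take part in many processes, from seed storage to vascular development. HOX4 belongs to class I of the homeodomain-leucine zipper (HD-Zip) family, whose members act in growth and in responses to drought, and in rice its overexpression dampened gibberellin responses and shortened the plants.

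Array medians ran from 5.51 to 5.60 log2 units, and pairs of arrays correlated at 0.962 to 0.986 (Pearson). Replicate 3 of asp1-10 stood apart from its genotype. It correlated at a mean of 0.975 with the other asp1-10 arrays and of 0.983 with the fon2-3 arrays. Of the meristem markers 8 of 12 were measured, OSH1 and FON1 among them, and the highest genotype mean of each lay above 5.55, the median of all values. The mean log2 level of these 8 markers ranged from 6.76 to 7.64 on the WT arrays, from 7.21 to 8.52 in fon2-3, from 8.31 to 8.41 in asp1-10 and from 7.95 to 8.42 in the double mutant. The markers did not move as 1: in those mutant lines 6, 6 and 5 of the 8 read above WT. WOX4 (-0.26, -0.13 and -0.08) and MADS18 (-0.35, -0.19 and -0.11) read below WT in each line. MADS34 differed by 0.25, 2.77 and 2.89, and LAX1 by 0.31, 1.63 and -0.43. Of the photosynthesis genes, which mark green leaf or bract tissue, 6 of 9 were measured, with means of 5.12 to 5.51 in WT, 4.45 to 4.68 in fon2-3, 4.35 to 5.03 in asp1-10 and 4.41 to 4.78 in the double mutant. Their largest falls were in OEE3 (-1.90, -1.39 and -1.86) and PSAH (-1.19, -1.21 and -1.13), while PSAG read 0.38 above WT in asp1-10. The defining light-harvesting genes CAB1R and CAB2R stayed below 5.55 in every genotype mean. Lateral organ markers (6 of 7 measured, YAB1 below 5.55) ranged from 7.77 to 8.04 in WT, 7.95 to 8.19 in fon2-3, 7.49 to 7.80 in asp1-10 and 8.23 to 8.40 in the double mutant. They split too: in the 3 mutant lines 4, 2 and 6 of the 6 read above WT. DL differed by -0.26, -1.49 and 0.007, the largest fall in asp1-10, whereas YAB2 differed by 0.35, 0.66 and 1.13 and YAB5 by 0.52, 0.26 and 0.79. Anther and tapetum markers (4 of 6 measured, TDR and UDT1 below 5.55) ranged from 5.44 to 5.73 in WT and 5.78 to 5.83 in fon2-3. In asp1-10 they ranged from 5.88 to 6.32 and in the double mutant from 5.73 to 5.83.

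OsGRF1, DOF1 and HOX4 all read higher in each mutant than in WT, and for each of the 3 genes the lowest of the 9 mutant arrays lay above the highest WT array. That ordering was met by 1111 of the 15140 genes (7.34%). The share of genes with all mutant arrays above all WT arrays was 20.0% for fon2-3, 14.9% for asp1-10 and 19.2% for the double mutant. Since the genes were chosen on these contrasts, nothing is read from the comparison with those shares. In bulk tissue, a larger share of cells that express a gene and more transcript per cell cannot be told apart.

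OsGRF1, the growth-regulating factor, read 6.88, 7.52 and 7.20 on the log2 scale on WT replicates 1, 2 and 3. It read 8.89, 9.74 and 8.88 in fon2-3. It read 7.63, 8.80 and 8.95 in asp1-10 and 8.77, 9.95 and 9.62 in the double mutant. The asp1-10 arrays spread the most, and replicate 1 of that line lay only 0.11 above the highest WT array, whereas fon2-3 and the double mutant cleared WT by 1.35 and 1.24. The mean rose in the order WT (7.20 ± 0.322, SD, n = 3), asp1-10 (8.46 ± 0.723), fon2-3 (9.17 ± 0.494) and double mutant (9.45 ± 0.614). Against WT the difference was 1.97 (SE 0.394, 3.91-fold) in fon2-3, 1.26 (2.39-fold, same SE) in asp1-10 and 2.25 (4.75-fold, same SE) in the double mutant.

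DOF1, the Dof zinc finger gene, was the most even of the 3 within genotypes. It read 5.14, 5.60 and 5.33 on the WT arrays. It read 6.73, 7.45 and 6.74 in fon2-3, 6.75, 7.06 and 7.61 in asp1-10, and 7.15, 7.36 and 7.84 in the double mutant. No mutant array came closer than 1.14 log2 units to the highest WT array, and the 3 mutant lines overlapped one another. Its WT mean of 5.35 ± 0.228 (SD, n = 3) was below 5.55, the median of all values, and was not shown to exceed background, so the folds from it can be too small. The difference from WT was 1.62 (SE 0.266, 3.07-fold) in fon2-3, 1.79 (3.45-fold) in asp1-10 and 2.10 (4.28-fold) in the double mutant, with the same SE throughout.

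HOX4, the HD-Zip class I gene, had its widest gap between WT and the double mutant. It read 5.26, 6.26 and 6.05 in WT, 7.42, 7.98 and 6.98 in fon2-3, and 6.98, 7.49 and 7.95 in asp1-10. It read 8.08, 9.11 and 8.07 in the double mutant. The single mutants shared nearly the same range, and each of the 3 double mutant arrays lay above every single mutant array, by a margin of 0.09 over fon2-3 and 0.12 over asp1-10. Means were 5.86 ± 0.528 in WT, 7.46 ± 0.501 in fon2-3, 7.48 ± 0.483 in asp1-10 and 8.42 ± 0.600 in the double mutant (SD, n = 3). Against WT these were differences of 1.60 (SE 0.375, 3.04-fold), 1.62 (3.07-fold) and 2.56 (5.92-fold).

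**Figure D1:**
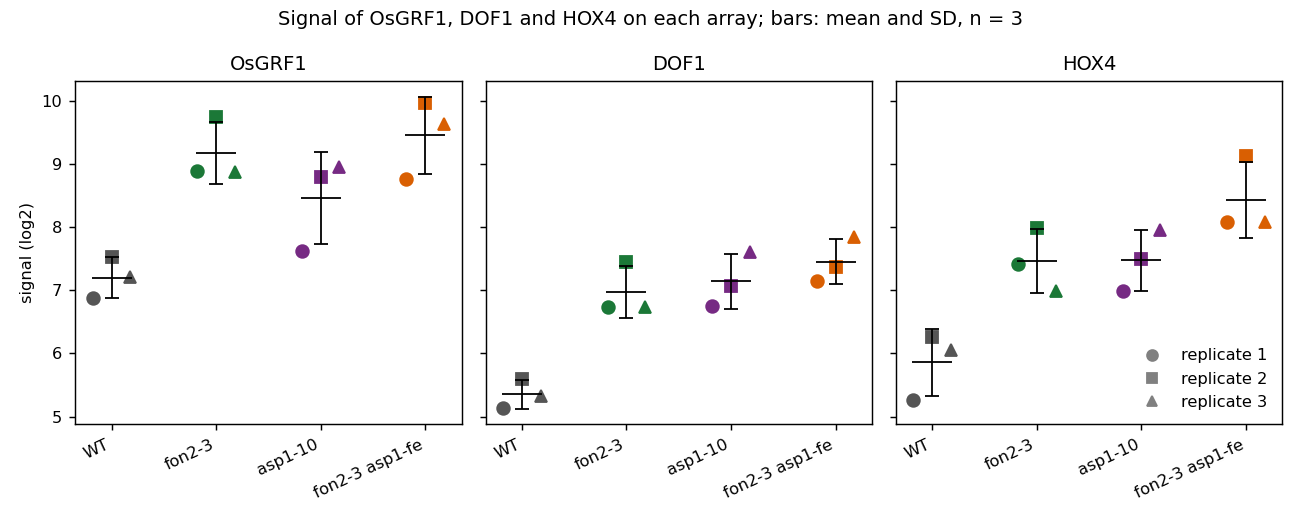
Log2 signal (y axis) of OsGRF1, DOF1 and HOX4 on each of the 12 arrays, grouped by genotype (x axis); symbols give the replicate number, and the bars give the mean and SD of 3 arrays. For each gene the 9 mutant arrays lie above the 3 WT arrays, and in HOX4 the double mutant arrays (8.07 to 9.11) also lie above both single mutants.

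Genotype accounted for 78.4% of the variance of OsGRF1 over the 12 arrays, 88.1% for DOF1 and 81.9% for HOX4. The rest was spread within genotypes, with a pooled SD of 0.559, 0.366 and 0.530 log2 units. Because the genes were chosen for their gap to WT on these arrays, large shares between genotypes follow from the choice. The same share over all genes was not computed. Leaving out asp1-10 replicate 3, the array that stood apart, brought the asp1-10 difference from WT to 1.01 for OsGRF1, 1.55 for DOF1 and 1.38 for HOX4. With WT replicate 1 left out as well, these became 0.85, 1.45 and 1.08. Earlier work on these data had set WT replicate 1 apart, and it held the lowest WT value of each of the 3 genes. Its mean correlation with its own genotype was 0.983, between the 0.982 of WT replicate 2 and the 0.984 of WT replicate 3. By that measure it did not stand apart. The pair of WT replicate 1 and asp1-10 replicate 3 was chosen after seeing the data.

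The double mutant was compared with each single mutant, and the single mutants with each other, to ask whether the 3 genes differed between mutant lines. The choice of the genes did not use these contrasts directly, although it used the same mutant arrays. In limma 0 of the 9 differences passed a Benjamini-Hochberg adjusted p of 0.05 over all probes, and 3 of 9 had an unadjusted p below 0.05. Over all 15140 genes such an unadjusted p was held by 791 for the double mutant against fon2-3. It was held by 1466 for the double mutant against asp1-10 and by 1667 for asp1-10 against fon2-3. Over all genes 0.0198% passed in each of the 3 contrasts, which is 3 genes each. Without asp1-10 replicate 3 the number was 107 for asp1-10 against fon2-3 and 39 for the double mutant against asp1-10, and OsGRF1, DOF1 and HOX4 still did not pass. HOX4 was higher in the double mutant by 0.96 than in fon2-3 (95% interval 0.14 to 1.78, limma adjusted p = 0.897) and by 0.95 than in asp1-10 (0.12 to 1.77, adjusted p = 0.585). Both intervals lie above 0 before adjustment and the arrays did not overlap, an ordering that 4.96% and 8.60% of all genes also showed. OsGRF1 was 0.99 above asp1-10 in the double mutant (0.12 to 1.86, limma adjusted p = 0.588), with overlapping arrays.

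The other 6 differences between mutant lines had intervals that spanned 0. For OsGRF1 the double mutant differed from fon2-3 by 0.28 (95% interval -0.59 to 1.15, limma adjusted p = 0.978) and asp1-10 from fon2-3 by -0.71 (-1.58 to 0.16, adjusted p = 0.618). DOF1 in the double mutant differed by 0.48 from fon2-3 (-0.10 to 1.06, limma adjusted p = 0.934) and by 0.31 from asp1-10 (-0.27 to 0.89, adjusted p = 0.849). Between the single mutants DOF1 differed by 0.17 (-0.41 to 0.75, limma adjusted p = 0.880) and HOX4 by 0.01 (-0.81 to 0.84, adjusted p = 0.995). Those intervals reach past 1 log2 unit for OsGRF1 and DOF1 and to 0.84 for HOX4, so the levels were not shown to be equal. The signs of the last 2 differences turned when asp1-10 replicate 3 was left out, to -0.06 for DOF1 and -0.22 for HOX4.

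**Figure D2:**
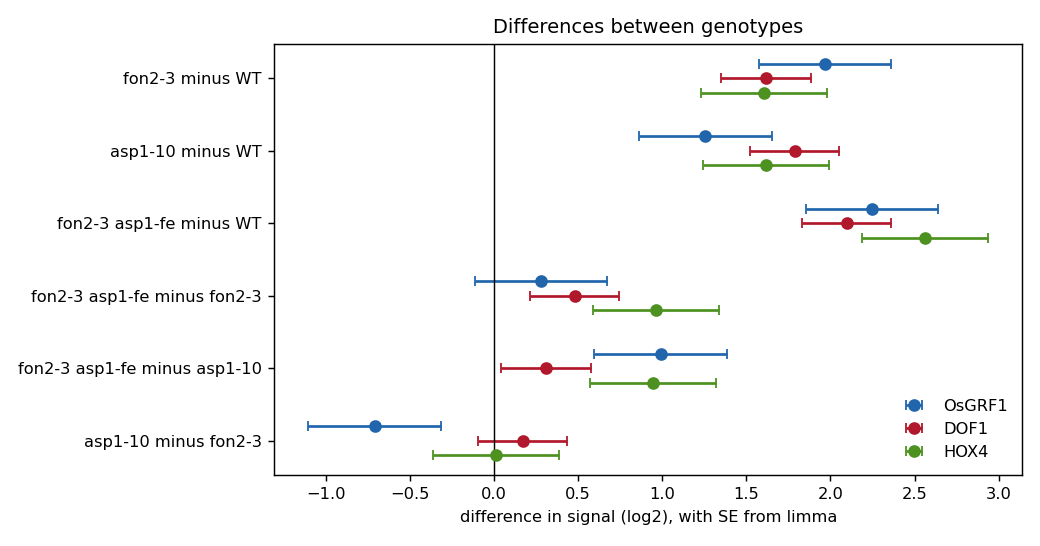
Differences in log2 signal (x axis) for OsGRF1, DOF1 and HOX4 in the 6 comparisons of genotypes (y axis), with the SE from limma as bars. The 9 differences from WT lie between 1.26 and 2.56, and those between mutant lines lie between -0.71 and 0.99.

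The double mutant was also set against the sum of the single-mutant differences from WT. For OsGRF1 the sum was 3.22 and the double mutant stood at 2.25, a departure from additivity of -0.98 (SE 0.557). For DOF1 the sum was 3.41 against 2.10, a departure of -1.31 (SE 0.376). For HOX4 it was 3.22 against 2.56, a departure of -0.66 (SE 0.530). Without WT replicate 1 and asp1-10 replicate 3 these departures were -0.57, -0.97 and -0.12. The double mutant carries asp1-fe and the sum uses asp1-10, so a departure from additivity and a difference between the asp1 alleles cannot be told apart. All 3 departures were negative on the log2 scale, meaning a double mutant below the sum. WT enters this contrast and the genes were chosen for low WT levels, so no test is given. The DOF1 value also rests on a WT mean that was not shown to exceed background.

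Within a genotype the 3 genes tended to move together from array to array. On 8 of the 12 arrays all 3 deviated from their genotype means in the same direction. All were high on fon2-3 replicate 2 (0.57, 0.48 and 0.52 above the mean for OsGRF1, DOF1 and HOX4) and on asp1-10 replicate 3 (0.49, 0.47 and 0.47). All were low on replicate 1 of every genotype: asp1-10 (-0.83, -0.39 and -0.49), the double mutant (-0.68, -0.30 and -0.34), WT (-0.32, -0.21 and -0.60) and fon2-3 (-0.28, -0.24 and -0.04). On replicate 3 of the double mutant they parted, with DOF1 at 0.39 and HOX4 at -0.35. Pearson correlations of these deviations over the 12 arrays were 0.82 between OsGRF1 and HOX4, 0.80 between OsGRF1 and DOF1 and 0.58 between DOF1 and HOX4. The 3 deviations of a genotype sum to 0, so only 8 of the 12 values of a gene are free. The pooled correlations of the signals themselves (0.92, 0.90 and 0.91 for HOX4 with OsGRF1, OsGRF1 with DOF1 and DOF1 with HOX4) include the gap between WT and mutants, on which the genes were chosen. Over the 9 mutant arrays alone they were 0.77, 0.66 and 0.67 in the same order. All the genes share the same arrays. How often other genes move together in this way was not computed, so nothing particular to these 3 is read from it.

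Marker levels, also taken as deviations from genotype means, were set beside these deviations. The same 12 arrays were used, with the same limit on free values. The mean of the meristem markers correlated with the deviations of OsGRF1, DOF1 and HOX4 at 0.54, 0.67 and 0.58, and the mean of the photosynthesis genes at -0.56, -0.48 and -0.72. Lateral organ markers gave 0.44, 0.24 and 0.46, and anther and tapetum markers gave -0.22, -0.19 and -0.10. LAX1 and MADS34 weigh heavily in the meristem mean, with an SD of 2.40 and 1.51 in fon2-3. The correlations without them were not computed. The part of tissue makeup in the levels of the 3 genes was not tested.

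**Figure D3:**
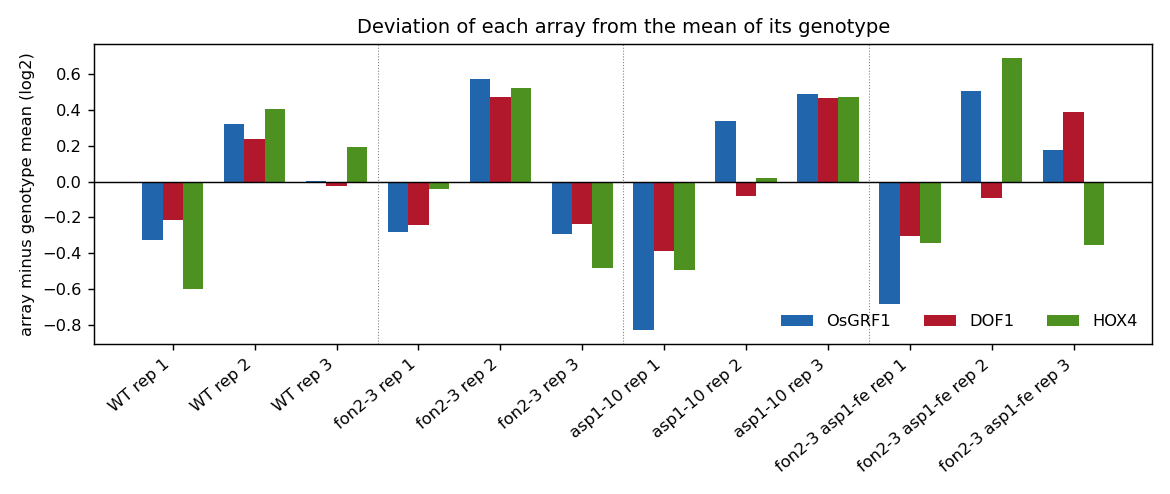
Log2 signal of each array minus the mean of its genotype (y axis) for OsGRF1, DOF1 and HOX4 on the 12 arrays (x axis, dotted lines between genotypes). On fon2-3 replicate 2 and asp1-10 replicate 3 all 3 bars lie above 0, and on replicate 1 of every genotype all 3 lie below it.

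To see whether the gene families moved as a whole, the other named GRF, Dof and HD-Zip genes were compared with WT. Of 22 measured relatives, 4 changed in fon2-3 (3 higher, 1 lower), 3 in asp1-10 (2 higher, 1 lower) and 6 in the double mutant (5 higher, 1 lower), by limma with adjusted p below 0.05 over all probes. The share called was 18.2%, 13.6% and 27.3% of the relatives, beside 5.72%, 2.43% and 4.53% of all genes. Of all genes 3.91%, 1.40% and 2.89% were called higher and 1.81%, 1.03% and 1.64% lower in those lines. Their median differences were 0.15, 0.02 and 0.08, beside 0.02, 0.01 and 0.01 over all genes. Between mutant lines limma called 0 of 22 in each contrast, and 3, 6 and 2 had an unadjusted p below 0.05 for the double mutant against fon2-3, the double mutant against asp1-10 and asp1-10 against fon2-3. In the same order 791, 1466 and 1667 of all 15140 genes had such a p.

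The counts of relatives called against WT rested on few arrays. The fon2-3 count fell to 0 without WT replicate 1 or fon2-3 replicate 2 and to 2 without WT replicate 3. The double mutant count fell to 0 without its own replicate 2, to 2 without its replicate 1, WT replicate 1 or WT replicate 2, and to 3 without its replicate 3 or WT replicate 3. For asp1-10 the count was 0 without WT replicate 1, asp1-10 replicate 2 or asp1-10 replicate 3, and 1 without asp1-10 replicate 1, WT replicate 2, WT replicate 3 or double mutant replicate 1 or 3. It was also 0 when only the arrays of asp1-10 and WT were fitted. The number called over all genes fell with the same arrays. In fon2-3, where it was 866, leaving out WT replicate 1 gave 1, leaving out WT replicate 3 gave 79 and leaving out fon2-3 replicate 2 gave 0. In the double mutant it went from 686 to 5 without its replicate 2, and to between 68 and 407 without its replicate 1 or 3 or any 1 WT array. In asp1-10 it went from 368 to between 47 and 270 without the arrays just named, and to 1 in the fit of asp1-10 and WT alone.

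Among GRF genes, 3 of the 9 listed besides OsGRF1 were measured. GRF6, a GRF gene that promotes panicle branching in rice, read 8.30, 8.38 and 8.72 in WT and 9.29, 9.62 and 9.14 in the double mutant. It rose in the double mutant by 0.88 (SE 0.163, n = 3 per group, limma adjusted p = 0.0223), a call held under 17 of 22 alternatives. The groups did not overlap, an ordering that 19.2% of all genes also showed. In fon2-3 and asp1-10 its differences were 0.52 and 0.50, with limma adjusted p of 0.0875 and 0.130. GRF12 differed from WT by 0.21, 0.13 and 0.09 and GRF11 by 0.09, -0.25 and 0.10 in fon2-3, asp1-10 and the double mutant, and neither passed. Limma thus called 0 of 3 in each single mutant, where 1 of 3 had an unadjusted p below 0.05. Over all 15140 genes 3704 in fon2-3 and 2937 in asp1-10 had such a p. The GIF coactivators had no measured gene among the 3 listed.

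Among Dof genes, all 3 listed besides DOF1 were measured. DOF4 had the largest differences of any relative, 1.35 in fon2-3, 1.64 in asp1-10 and 1.49 in the double mutant (SE 0.397), and did not pass in limma (adjusted p = 0.0726, 0.0572 and 0.0576). It read 6.93, 7.61 and 7.75 in WT and 8.42, 9.78 and 8.12 in fon2-3, with an SD of 0.884 in fon2-3. DOF2 rose in the double mutant by 0.86 (SE 0.215, limma adjusted p = 0.0487), from 5.86, 5.86 and 6.04 to 7.0, 6.60 and 6.75, a call that was lost under 13 of 22 alternative settings, cyclic loess and centring on array medians among them. DOF5 differed by -0.51, -0.20 and -0.21 and did not pass. Limma called 0 of these 3 genes in each single mutant, where 3 in fon2-3 and 2 in asp1-10 had an unadjusted p below 0.05. So did 3704 and 2937 of all 15140 genes in those lines.

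Of the 25 HD-Zip genes listed besides HOX4, 16 were measured, 7 of them in class I, 5 in class II and 4 in class III. The class III genes, which specify the upper side of lateral organs and act in shoot meristem formation in rice, held all the rises. Of the 4, 3 rose in fon2-3, 2 in asp1-10 and 3 in the double mutant, where 3.91%, 1.40% and 2.89% of all genes were called higher. The split by class was made after the values were seen. HOX9 read 8.16, 8.57 and 8.31 in WT and 9.22, 9.34 and 9.36 in fon2-3, a rise of 0.96 (SE 0.142, limma adjusted p = 0.0163).

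HOX9 also read 8.88, 8.94 and 9.30 in asp1-10 and 9.33, 9.44 and 9.27 in the double mutant, rises of 0.69 (limma adjusted p = 0.0364) and 1.0 (adjusted p = 0.0137). HOX32 read 9.27, 9.07 and 9.11 in WT, 9.73, 9.98 and 9.87 in fon2-3, 9.59, 9.82 and 9.96 in asp1-10, and 10.17, 10.17 and 10.10 in the double mutant. Its rises were 0.71, 0.64 and 1.0 (limma adjusted p = 0.0188, 0.0298 and 0.0108). For both genes no mutant array overlapped WT, an ordering that 7.34% of all genes also showed. The HOX9 calls held under 20, 11 and 21 of 22 alternatives in fon2-3, asp1-10 and the double mutant, and those of HOX32 under 19, 14 and 21. HOX10 rose by 0.53 in fon2-3 and 0.61 in the double mutant (limma adjusted p = 0.0446 and 0.0338) and differed by 0.27 in asp1-10 (adjusted p = 0.302), and HOX33 differed by 0.45, -0.03 and 0.63 in the 3 lines without passing. The HOX10 call was lost under 14 of 22 alternatives in fon2-3, cyclic loess and centring on array medians among them, and under 7 in the double mutant.

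Among the 7 measured class I relatives of HOX4, limma called 0 higher in each line, with 0, 0 and 1 higher at an unadjusted p below 0.05, and their median differences from WT were -0.25, -0.06 and -0.09 in fon2-3, asp1-10 and the double mutant. HOX24, a stress-responsive class I gene, fell by 0.81, 0.67 and 0.56 (limma adjusted p = 0.0190, 0.0395 and 0.0494), but its genotype means of 3.78 to 4.59 were all below 5.55, so it was not shown to exceed background. Its call was kept under 19, 9 and 3 of 21 alternatives in the 3 lines, and in the double mutant it was lost under cyclic loess and centring on array medians. HOX24, HOX8, HOX12 and HOX14 were all as dim, whereas HOX5, HOX6 and HOX13 were not. In class II, HOX3 differed by 0.58, 0.53 and 0.93 and HOX7 by 0.20, -0.03 and -0.10, and limma called 0 of 5 in each line, with 0, 0 and 1 at an unadjusted p below 0.05. Such a p, in either direction, was held by 3704, 2937 and 3432 of all 15140 genes in the 3 lines.

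**Figure D4:**
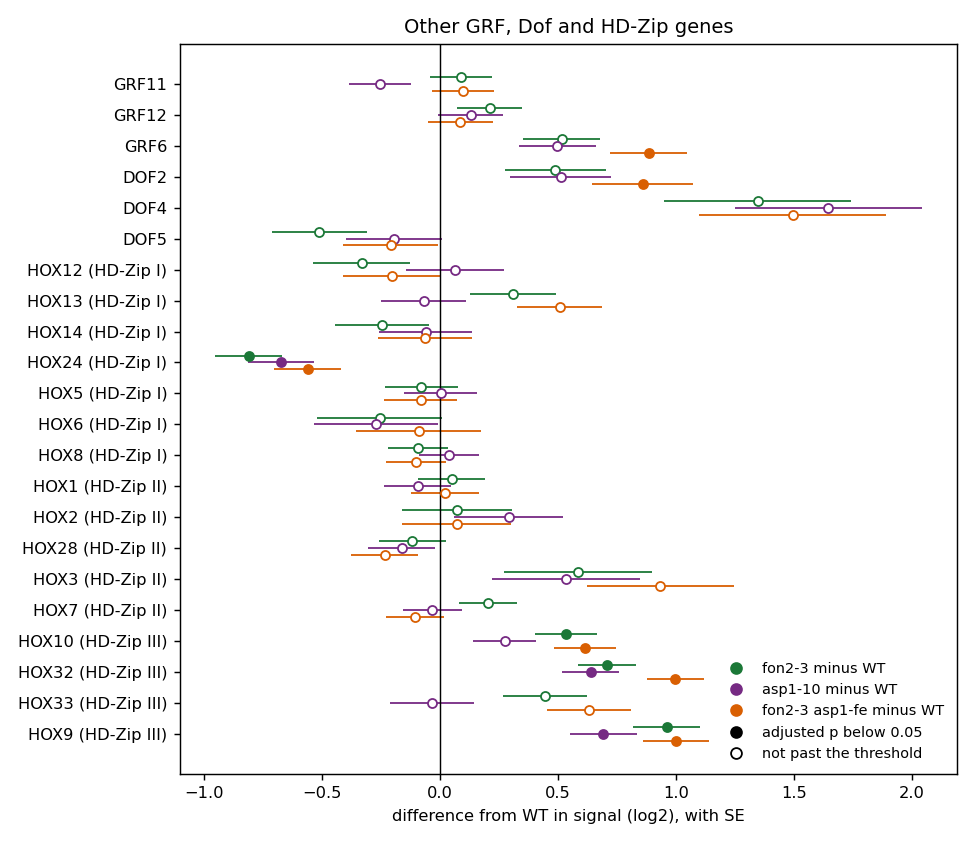
Difference from WT in log2 signal (x axis), with the SE from limma, for the 22 measured relatives of OsGRF1, DOF1 and HOX4 (y axis) in the 3 mutant lines; filled points have an adjusted p below 0.05. The class III HD-Zip genes HOX9 and HOX32 are filled on the right in all 3 lines, HOX24 on the left, and DOF4 lies farthest right with open points.

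Gibberellin genes were examined because OsGRF1 and HOX4 are both tied to that hormone in rice. Of 10 listed genes 4 were measured: GA20OX3, CPS1, GID1 and EUI1. GA20OX3, a late enzyme of gibberellin synthesis, read 7.45, 7.64 and 7.70 in WT, 7.17, 6.78 and 6.75 in fon2-3, 6.38, 6.31 and 6.42 in asp1-10, and 6.07, 6.41 and 6.75 in the double mutant. It fell by 0.70, 1.23 and 1.19 in those lines (limma adjusted p = 0.0439, 0.0133 and 0.0137), and no mutant array overlapped WT. The share of all genes with every mutant array below WT was not computed, so nothing is read from that ordering. CPS1, an early enzyme of the pathway, differed by -0.28, -0.73 and -0.36. GID1, the gibberellin receptor, differed by -0.27, -0.24 and -0.09, and EUI1, a gibberellin-inactivating enzyme with a dim probe, by -0.23, -0.32 and -0.08, and none of these 3 passed in any line. Limma thus called 1 of the 4 lower in each line, where 1.81%, 1.03% and 1.64% of all genes were called lower. Medians over the 4 genes were -0.28, -0.53 and -0.23, beside 0.02, 0.01 and 0.01 over all genes. The GA20OX3 call was lost in fon2-3 under 11 of 22 alternatives, in asp1-10 under 2 and in the double mutant under 1.

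KNOX homeobox genes, which maintain meristem cells, were examined because a pair of rice GRF proteins is known to repress OSH71. Of 7 measured, 2 rose in fon2-3, 2 in asp1-10 and 3 in the double mutant, with medians of 0.68, 0.81 and 1.17. Over all genes 3.91%, 1.40% and 2.89% were called higher, with medians of 0.02, 0.01 and 0.01. OSH71 rose by 1.07, 1.3 and 1.20 (limma adjusted p = 0.0333, 0.0283 and 0.0284) and OSH15 by 1.06, 1.15 and 1.34. The OSH71 calls held under 16, 17 and 16 of 22 alternatives. OSH1 rose by 1.17 in the double mutant (limma adjusted p = 0.0288), a call held under 16 of 22. In fon2-3 and asp1-10 it differed by 0.68 and 0.81 without passing (limma adjusted p = 0.108 and 0.0947). The KNOX list split. OSH45 differed by 0.87, 1.41 and 1.48 without passing. HOS59 differed by 0.19, 0.38 and 0.18, HOS58 by -0.02, 0.03 and -0.02, and HOS66 by -0.07, 0.07 and -0.12. The KNOX medians therefore do not describe every gene of the list. OSH1 and OSH15 are also meristem markers above, so their rises are not a separate observation. D-type cyclins, which drive entry into the cell cycle, had 2 rises of 7 in each line, with medians of 0.61, 0.28 and 0.63, to be read beside the same shares and medians of all genes. CYCD2-2 rose by 1.88, 1.39 and 2.04 (limma adjusted p = 0.0159, 0.0310 and 0.0119), CYCD5-3 by 0.66 in fon2-3 and 0.78 in the double mutant, and CYCD6-1 by 0.94 in asp1-10. The CYCD5-3 call in fon2-3 was lost under 13 of 22 alternatives, and that of OSH15 under 11 in fon2-3 and 10 in asp1-10. With 1 array left out the KNOX counts ranged from 0 to 2, 0 to 3 and 0 to 4, and the cyclin counts from 0 to 3, 0 to 2 and 0 to 3. The KNOX count was 0 in fon2-3 without WT replicate 1 or 3 or fon2-3 replicate 2 or 3, in asp1-10 without WT replicate 1 or 3 or asp1-10 replicate 3, and in the double mutant without WT replicate 1 or its replicate 2 or 3. The cyclin count was 0 in fon2-3 without WT replicate 1 or fon2-3 replicate 2, in asp1-10 without WT replicate 1 or 2 or asp1-10 replicate 3, and in the double mutant without its replicate 2.

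Likeness of pattern was measured as the Pearson correlation with each of the 3 genes over the 12 arrays, among the other 15137 genes. It exceeded 0.9 for 88 genes with OsGRF1, 95 with DOF1 and 43 with HOX4. The named genes closest to OsGRF1 were OsC3H53 (0.97) and OsC3H23 (0.95), both of the CCCH zinc finger family, MOF1 (0.96), a MYB-type regulator of spikelet determinacy, ARF3 (0.95), an auxin response factor, and AP25 (0.95). All 5 were lowest in asp1-10 among the mutant lines, as OsGRF1 was, and MOF1 differed from WT by 1.84, 1.23 and 2.19 in fon2-3, asp1-10 and the double mutant. They were picked by correlation with OsGRF1 on these arrays, so a shared order of genotypes follows largely from the choice.

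Closest to DOF1 were SPL6 (0.97), an SBP-box factor, BC1L2 (0.97), of a family that acts in cell wall formation, OSH71 (0.95), CESA4 (0.94), a secondary wall cellulose synthase, and Ehd4 (0.93), a flowering regulator. SPL6 differed from WT by 0.52, 0.55 and 0.54, about level across the mutant lines, and CESA4 by 0.51, 0.61 and 0.71. Closest to HOX4 were ARF5 (0.95) and ARF15 (0.94), auxin response factors, GRF6 (0.94), SPL7 (0.93) and OSH1 (0.92). Each of these was highest in the double mutant, ARF5 at 0.40, 0.45 and 0.94 above WT. Both groups were picked by correlation with DOF1 or HOX4 on these arrays, so a shared order of genotypes follows largely from the choice here too. With genotype means removed the correlations were 0.80 to 0.94 for the OsGRF1 group, 0.44 to 0.90 for the DOF1 group and 0.67 to 0.89 for the HOX4 group. The correlation used for the pick also holds these deviations from genotype means. High values here therefore follow in part from the choice and are no separate check, and their spread over all genes is not given.

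**Figure D5:**
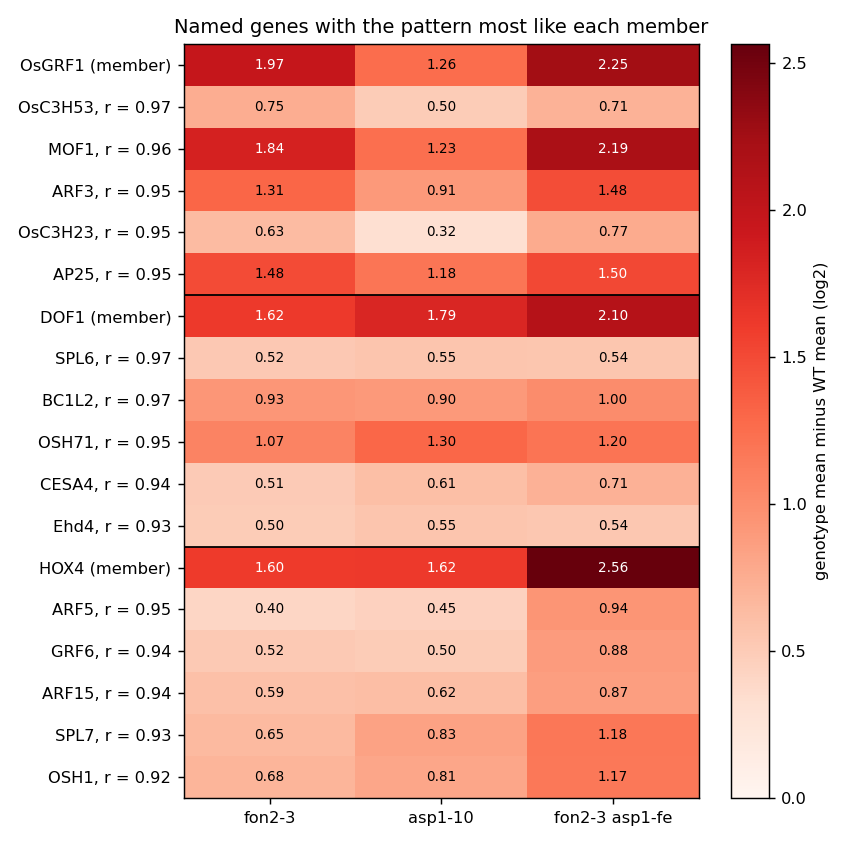
Genotype mean minus WT mean in log2 signal (colour scale and printed values) in the 3 mutant lines (columns) for OsGRF1, DOF1, HOX4 and the 5 named genes with the highest Pearson correlation with each over the 12 arrays (rows, with r). The OsGRF1 block is palest in asp1-10, the DOF1 block varies least for SPL6 (0.52 to 0.55), and the HOX4 block is darkest in the double mutant. The rows were picked by that correlation, so likeness within a block follows from the choice.

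The nearest measured genes on either side of the 3 genes were read from the gene order of the rice assembly ASM3414082v1. On both sides of DOF1, LOC4336696 and LOC4336702 differed from WT by -0.08 to 0.11 in the 3 lines. Beside OsGRF1, LOC4330904 differed by 0.45, 0.40 and 0.39 without passing, and LOC4330899 by -0.02, 0.26 and 0.29. Beside HOX4, LOC4347334, with no annotated gene between, rose by 0.84 in asp1-10 and 0.76 in the double mutant (limma adjusted p = 0.0483 and 0.0489) and differed by 0.66 in fon2-3 (adjusted p = 0.0655), while LOC4347331 on the other side differed by 0.33, -0.36 and 0.14.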

How the data were processed

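Signals of 12 arrays were used. The deposited values were taken as log2 because of their range; per the submitters' processing notes, the authors used Affymetrix Expression Console 1.3. How background was corrected and arrays were normalized, and the log base, are not stated in the labels. Of 54922 probes, 15829 had 1 gene in the annotation table, 440 several, and 38653 were not listed; the probe with the highest mean stood for a gene. Limma 3.58.1 under R 4.3.3 (lmFit, eBayes) fitted 1 mean per genotype to all probes and arrays, with 8 residual and 3.22 prior degrees of freedom. Tests were two-sided with Benjamini-Hochberg adjustment over all probes and a threshold of 0.05. The fit was tested on simulated data. The number of arrays limits the precision.

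Members and lists were chosen with earlier results of these data known; gene names were matched by symbol or synonym after the annotation was seen, and 14-3-3, diterpene phytoalexin and ambiguous GID2 entries were left out. Named genes were the members, called list genes (at most 5 per list), up to 3 further GRF, Dof or HD-Zip genes of highest mean, and the 5 most correlated named genes. Same-numbered replicates were checked for pairing: 2 of 18 pairs had deviations correlated above 0.1, so the numbers were not taken as pairs. The array files name no genome build, so no positions are given and the annotation of assembly ASM3414082v1 served for names and gene order only; sequences were not used here. Alternatives were other normalizations, fits, priors, weights, filters and probe rules, and each array left out.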

Additional observations from a re-analysis of the deposited data

How the results depend on the processing

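The differences of OsGRF1, DOF1 and HOX4 from WT were the basis of their choice, and many alternatives cannot move a difference of means, so no tally of them is given. Without WT replicate 1 and asp1-10 replicate 3, a pair left out after seeing the data, HOX4 in asp1-10 against WT was 1.08, its departure from additivity was -0.12, and DOF1 and HOX4 in asp1-10 against fon2-3 turned to -0.064 and -0.22. Array weights turned the last to -0.065. With single arrays left out in turn, OsGRF1 gave 1.68 to 2.13 (fon2-3 minus WT), 1.01 to 1.67 (asp1-10 minus WT), 1.99 to 2.59 (double mutant minus WT), 0.03 to 0.62 (double mutant minus fon2-3), 0.57 to 1.33 (double mutant minus asp1-10), -0.96 to -0.29 (asp1-10 minus fon2-3) and -1.39 to -0.64 (departure from additivity). With single arrays left out in turn, DOF1 gave 1.38 to 1.74 (fon2-3 minus WT), 1.55 to 1.98 (asp1-10 minus WT), 1.90 to 2.25 (double mutant minus WT), 0.28 to 0.72 (double mutant minus fon2-3), 0.11 to 0.54 (double mutant minus asp1-10), -0.06 to 0.41 (asp1-10 minus fon2-3) and -1.50 to -1.07 (departure from additivity). With single arrays left out in turn, HOX4 gave 1.31 to 1.84 (fon2-3 minus WT), 1.32 to 1.86 (asp1-10 minus WT), 2.22 to 2.77 (double mutant minus WT), 0.61 to 1.22 (double mutant minus fon2-3), 0.60 to 1.18 (double mutant minus asp1-10), -0.23 to 0.27 (asp1-10 minus fon2-3) and -1.0 to -0.36 (departure from additivity). The changed relatives numbered 0 to 4 in fon2-3, 0 to 4 in asp1-10 and 0 to 6 in the double mutant with single arrays left out. HOX4 in asp1-10 against fon2-3 was -0.0070, -0.23 and -0.22 without fon2-3 replicate 1, fon2-3 replicate 3 and asp1-10 replicate 3, and DOF1 was -0.064 without the last.
Between mutant lines the adjusted p of the 3 genes ranged from 0.24 to 1.0 over the alternatives, and none passed. The number of changed GRF, Dof and HD-Zip relatives in asp1-10, 3 in the report, was 0 in a fit of only the groups compared, 0 with the replicate block and 0 without that pair of arrays; in the double mutant it was 3 instead of 6 without those arrays. With the replicate block the count was 3 in fon2-3 and 6 in the double mutant. Called genes overall numbered 866, 368 and 686 in fon2-3, asp1-10 and the double mutant, and 469, 159 and 372 with the replicate block, 683, 1 and 604 in fits of the groups compared, 1376, 472 and 1247 with array weights, 1137, 562 and 959 with a variance trend, 1568, 846 and 1376 without dim probes, and 515, 10 and 456 without that pair. With single arrays left out they ranged from 0 (without fon2-3 replicate 2) to 1329 in fon2-3, 47 (without WT replicate 1) to 366 in asp1-10 and 5 (without double mutant replicate 2) to 1127 in the double mutant, the highest for fon2-3 and the double mutant without asp1-10 replicate 3. Between mutant lines, 3 each in the report, they ranged from 0 to 107 (asp1-10 against fon2-3), 1 to 39 (double mutant against asp1-10) and 1 to 5 (double mutant against fon2-3), and without that pair were 90, 41 and 1. As for the replicate numbers, 3 of 12 arrays correlated best with their own number. Each of the 3 genes had 1 probe, so averaging the probes of a gene returned the same values for them, and the departure from additivity has no fit of only the groups compared. The causes were not tested.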
